A study of Mus musculus with 6 samples.

Results

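The genes described here are 10 enzymes of serine synthesis, folate-dependent one-carbon metabolism and transsulfuration, out of 27179 genes counted in mouse embryonic fibroblasts that lack core clock repressors. They were picked by name as Phgdh, Psat1, Psph, Shmt1, Shmt2, Mthfd2, Mthfd1l, Aldh1l2, Cbs and Cth. The choice rested in part on measured values. Cth was nearly absent from the CRY2 line, and Cth and Phgdh lie on chromosome 3, whose median was shifted in the CRY1 line. The values of Cth and Phgdh are therefore given as a description without a test, and tests are reported for the other members. Because the set was put together with these data in view, the counts of its members describe it and are not independent support.

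Serine is made from the glycolytic intermediate 3-phosphoglycerate in successive steps by PHGDH, PSAT1 and PSPH. Serine hydroxymethyltransferases then turn serine into glycine and load a one-carbon unit onto tetrahydrofolate, which the cytosolic and mitochondrial folate enzymes use for nucleotide synthesis, formate and NADPH. Transsulfuration joins serine with homocysteine through CBS and releases cysteine through CTH, and its enzymes are best known from liver rather than fibroblasts.

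RNA was sequenced from 3 lines of mouse embryonic fibroblasts, with 2 libraries per line from separate RNA preparations of growing cultures kept in DMEM with 10% serum. The parental line, CPN-/-, lacks Cry1, Cry2, Per1, Per2, Nr1d1 and Nr1d2, and both other lines carry the same deletions. CPN-/- CRY1 and CPN-/- CRY2 received mouse Cry1 or mouse Cry2 by viral transfer, expressed from a viral promoter, and each was picked as a single colony under blasticidin, a step not described for the parental line. They are called the CRY1 line and the CRY2 line below. An effect of the returned protein, a property of the clone and an effect of infection or drug selection therefore cannot be told apart, and p-values measure the spread between RNA preparations of 1 clone.

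The libraries held 25957409 to 36106949 counts. Cry1 was at 165 and 190 CPM (read counts scaled to library size) in the CRY1 line against 48.3 to 125 in the other lines, and Cry2 was at 349 and 351 CPM in the CRY2 line against 50.7 to 136 in the others, so each line had the highest level of the gene it was given. Reads still fell on the deleted genes, so that whole-gene counts do not test the deletions. The SD of the log2 difference between libraries of a line was 0.435 for CPN-/-, 0.232 for the CRY1 line and 0.245 for the CRY2 line. In CPN-/- this difference was correlated with transcript length (Spearman's rho 0.659 across genes, which are not independent replicates), which bears on the longest members below. Of 7 fibroblast markers, 6 exceeded 1 CPM in each line (Thy1 had 1 to 7 counts), and none of the epithelial, endothelial or hepatocyte markers did so, and Cd68 was the only 1 of 4 blood markers that did. The summed level of the fibroblast markers was 9993 to 13360 CPM in the parental line, 12793 to 12973 CPM in the CRY1 line and 15975 to 16532 CPM in the CRY2 line, and its part in the results was not tested.

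In the CRY1 line, 5 of the 7 members tested fell relative to CPN-/-: Psph, Shmt1, Shmt2, Mthfd2 and Mthfd1l (edgeR's quasi-likelihood test, Benjamini-Hochberg adjusted p under 0.05 over all 14069 genes tested). None rose. The background was 13.1% of all genes called lower and 11.2% called higher. The median log2 fold change of these 7 was −0.66, beside −0.01 over all genes tested. In the CRY2 line no member was called by edgeR in either direction, with a background of 4.08% lower and 2.58% higher; 3 members (Psat1, Psph and Mthfd1l) had an unadjusted p under 0.05, as did 24.4% of all genes, and DESeq2 called 1, Mthfd1l. Their median there was −0.23. Between the CRY lines, Shmt2, Mthfd2 and Mthfd1l were lower in the CRY1 line than in the CRY2 line and none was higher, beside 8.57% and 7.72% of all genes, and the median was −0.53. The first 2 comparisons share the CPN-/- libraries and are set side by side only.

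These counts depended on single libraries. Without either CRY1 library, 1 member (Mthfd1l) was still called in the CRY1 line against CPN-/-, and none was called between the CRY lines when any 1 library of those lines was left out. In the CRY2 line against CPN-/-, 7 members were called without CPN-/- replicate 1 (6 lower, with Aldh1l2 higher) and 4, all lower, without CPN-/- replicate 2. The calls over all genes moved with them: 28.0% were called lower and 28.4% higher without CPN-/- replicate 1, and 10.9% and 11.2% without CPN-/- replicate 2. In the CRY1 line against CPN-/-, 2.86% and 2.62% of all genes were called lower without CRY1 replicate 1 or 2.

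**Figure D1:**
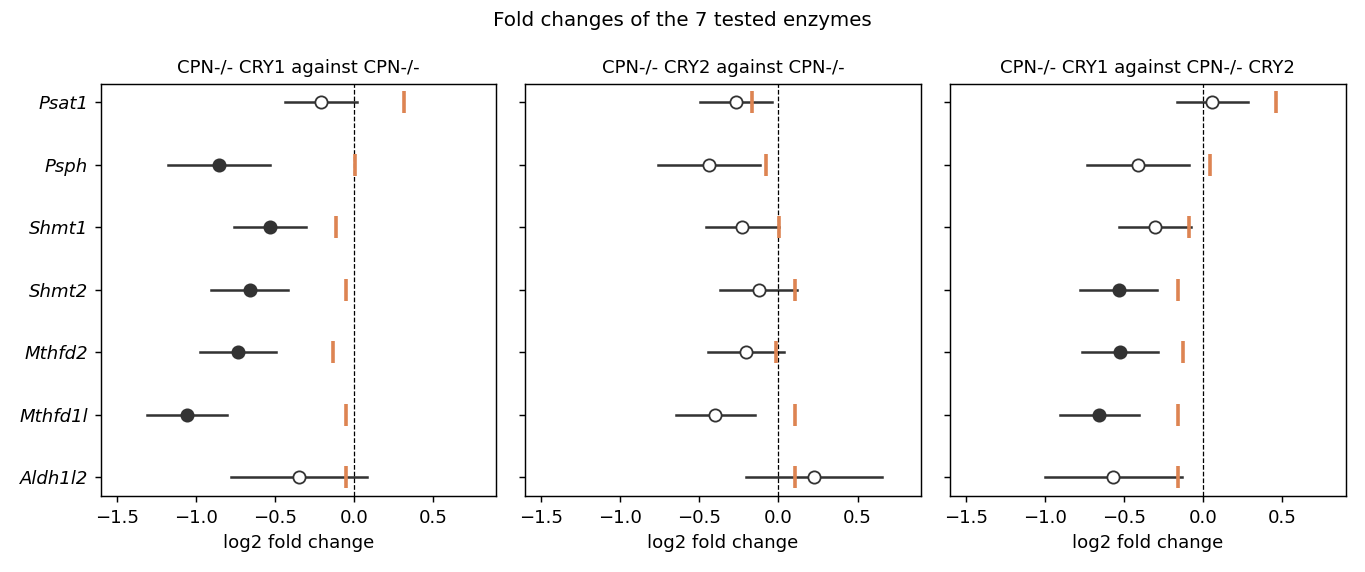
Log2 fold change (horizontal axis) of the 7 tested members in each of the 3 comparisons, as points with 95% confidence intervals; filled points passed the test and orange ticks mark the median log2 fold change of all tested genes on the same chromosome. Mthfd1l had the lowest value in CPN-/- CRY1 against CPN-/-, at −1.06, and no point is filled for CPN-/- CRY2 against CPN-/-.

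Stretches of 120 bases before the start site of 4 members follow (RefSeq, GRCm38.p6), read along the strand of the gene, so that the members with the lowest tested values can be read beside Psat1. The start sites are those of the promoter table, which for Psph, Mthfd2 and Mthfd1l lie 190, 8407 and 183 bases inside the outer end of the annotated gene. Capitals mark CCAAT or its complement ATTGG, a common promoter element. Psph, Mthfd2 and Mthfd1l had the lowest log2 fold changes of the tested members in the CRY1 line, and Psat1 was not called in the 3 comparisons as fitted, though it was under some other settings.
Psph, chr5:129787254-129787373, minus strand: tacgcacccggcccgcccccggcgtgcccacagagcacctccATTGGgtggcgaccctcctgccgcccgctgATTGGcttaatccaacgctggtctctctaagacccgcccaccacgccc
Mthfd2, chr6:83317605-83317724, minus strand: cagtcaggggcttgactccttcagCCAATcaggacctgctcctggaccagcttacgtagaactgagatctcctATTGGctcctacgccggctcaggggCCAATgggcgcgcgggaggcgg
Mthfd1l, chr10:3972955-3973074, plus strand: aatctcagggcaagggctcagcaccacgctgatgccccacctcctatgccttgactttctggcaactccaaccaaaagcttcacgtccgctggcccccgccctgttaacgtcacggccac
Psat1, chr19:15925060-15925179, minus strand: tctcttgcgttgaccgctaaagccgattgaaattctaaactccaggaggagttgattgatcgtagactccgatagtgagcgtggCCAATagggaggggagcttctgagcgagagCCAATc

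Promoter sequence (250 bases before to 50 after the start) was at hand for 8 of the 10 members, with 2 start sites for Psat1. The E-box CACGTG, the letters that CLOCK and BMAL1 bind, was found for 1 member, Cbs, at 229 bases before its start, and is present in 7.15% of 32851 mouse promoters of this length. The ATF4 composite element TGATGNAA was in none of the 9 member promoters, against 3.97% of all. The antioxidant response element core TGACNNNGC was present for Phgdh and Psph (12.4% of all promoters). CCAAT, added after the sequences were read, was present in 6 of the 9 member promoters, against 37.4% of all promoters. These belonged to Phgdh, Psat1, Psph, Shmt1, Mthfd2 and Cbs. It was not in the windows of Shmt2, Mthfd1l or the other Psat1 start site. Both strands were searched, and no match of one motif overlapped a match of another.

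Of the serine synthesis genes, 1 of the 2 tested fell in the CRY1 line, beside 13.1% of all genes. Phgdh (NCBI Gene 236539, chr3:98313171-98339969) encodes the first and committed enzyme of the pathway. It stood at 282 and 389 CPM in CPN-/-, at 219 and 214 CPM in the CRY1 line, and at 273 and 294 CPM in the CRY2 line. The CRY1 libraries were the lowest of the 6, and the CRY2 libraries overlapped with the widely spaced CPN-/- pair. The log2 fold change was −0.63 in the CRY1 line and −0.24 in the CRY2 line relative to CPN-/-, and the second value was 0.01 without CPN-/- replicate 2. The Phgdh transcript shares at least 95% identity with 9 processed pseudogenes over 277 to 1608 bases, and how reads with several matches were counted is not given in the sources used here, so its counts are uncertain.

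Psat1 (107272, chr19:15905123-15925059), the aminotransferase of the second step, had 684 and 721 CPM in CPN-/-, 601 and 616 CPM in the CRY1 line, and 578 and 590 CPM in the CRY2 line. Both CRY lines lay below CPN-/- without overlap, but the differences were small. The log2 fold changes were −0.21 (95% interval −0.43 to 0.02) and −0.27 (−0.49 to −0.04), with edgeR adjusted p = 0.149 and 0.157. The chromosome 19 genes had a median log2 fold change of 0.31 in the CRY1 line, and relative to that median Psat1 stood at −0.52 (edgeR adjusted p = 0.0121). Between the CRY lines its value was 0.06, and −0.40 relative to its chromosome (edgeR adjusted p = 0.0427).

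Psph (100678, chr5:129765558-129787443) encodes the phosphatase that releases serine. Its level was 136 and 177 CPM in CPN-/-, 86.7 and 87.0 CPM in the CRY1 line, and 112 and 119 CPM in the CRY2 line, so the 3 lines did not overlap. It fell 1.80-fold in the CRY1 line (log2 fold change −0.85 ± 0.14 (SE), edgeR adjusted p = 0.00711). The value in the CRY2 line, −0.44 ± 0.14, did not pass (edgeR adjusted p = 0.118), nor did the direct difference between the CRY lines, −0.41 (edgeR adjusted p = 0.0899). Exons of Psph share 452 bases with Cct6a on the opposite strand, and Cct6a itself had a log2 fold change of −0.10 in the CRY1 line (edgeR adjusted p = 0.525).

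Shmt1 (20425, chr11:60788897-60811265), the cytosolic serine hydroxymethyltransferase, was at 48.8 and 46.4 CPM in CPN-/-, at 32.6 and 33.3 CPM in the CRY1 line, and at 39.2 and 42.2 CPM in the CRY2 line. The lines again did not overlap, with the CRY2 line between the others. Shmt1 fell 1.45-fold in the CRY1 line (log2 fold change −0.53 ± 0.10, edgeR adjusted p = 0.0104). The value for the CRY2 line was −0.23 (edgeR adjusted p = 0.205). It shares 184 exonic bases with Smcr8 on the other strand, whose log2 fold change was 0.68 (edgeR adjusted p = 0.0745) in the CRY1 line, opposite in sign to that of Shmt1.

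**Figure D2:**
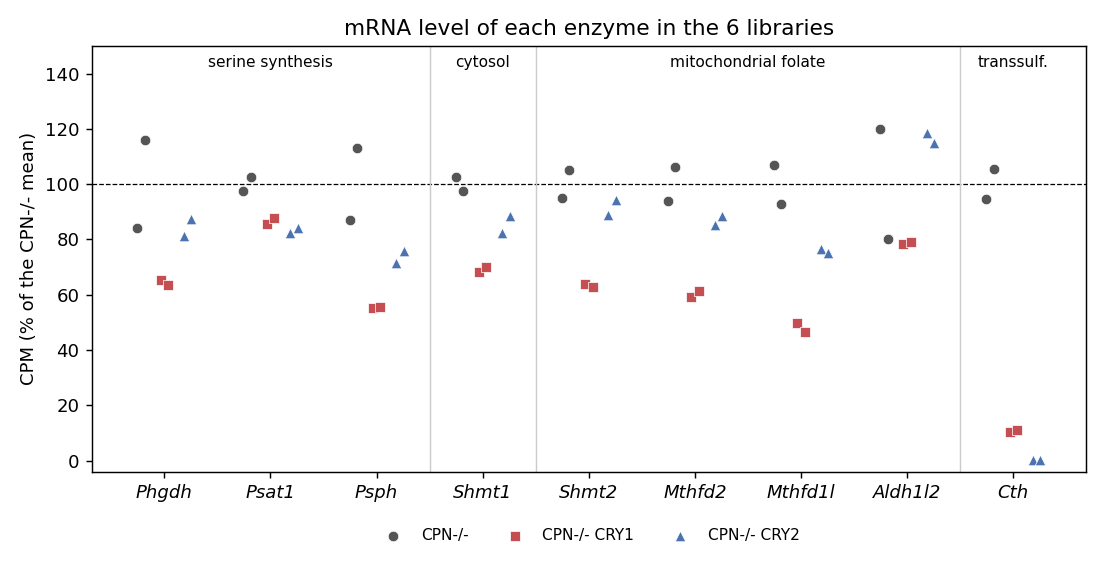
CPM in each of the 6 libraries as a percentage of the CPN-/- mean (vertical axis, linear) for the 9 members other than Cbs, grouped by role, with 1 point per library. Both CPN-/- CRY1 libraries lie below both CPN-/- libraries for the 9 genes shown, Cth and Phgdh among them, as they do for 34% of all tested genes.

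The mitochondrial folate branch oxidises the one-carbon unit of serine to formate. In the CRY1 line, 3 of its 4 members fell, beside 13.1% of all genes. Shmt2 (108037, chr10:127517123-127522444), the mitochondrial hydroxymethyltransferase that feeds the branch, had 650 and 719 CPM in CPN-/-, 437 and 430 CPM in the CRY1 line, and 609 and 646 CPM in the CRY2 line. The CRY2 libraries came close to the lower CPN-/- library, and the CRY1 line stood apart from both lines. Shmt2 fell 1.58-fold in the CRY1 line (log2 fold change −0.66 ± 0.10, edgeR adjusted p = 0.00629), was at −0.13 in the CRY2 line (95% interval −0.37 to 0.12, edgeR adjusted p = 0.464), and was lower in the CRY1 line than in the CRY2 line by the direct test (−0.53, edgeR adjusted p = 0.0160). It shares 32 exonic bases on the opposite strand with Ndufa4l2, which had only 10 to 34 counts per library.

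Mthfd2 (17768, chr6:83305704-83326011), the mitochondrial methylene-tetrahydrofolate dehydrogenase and cyclohydrolase that is typical of embryonic and dividing cells, had 218 and 247 CPM in CPN-/-, 138 and 142 CPM in the CRY1 line, and 198 and 206 CPM in the CRY2 line. The lines took the same order as for Shmt2. It fell 1.66-fold in the CRY1 line (log2 fold change −0.73 ± 0.10, edgeR adjusted p = 0.00420), and was at −0.21 in the CRY2 line (edgeR adjusted p = 0.258). The direct difference of the CRY1 line from the CRY2 line was −0.53 (edgeR adjusted p = 0.0158). With chromosome medians subtracted, the direct differences of Shmt2 (−0.37) and Mthfd2 (−0.40) no longer passed (edgeR adjusted p = 0.0682 and 0.0517).

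Mthfd1l (270685, chr10:3972892-4167081), the formate-releasing synthetase of mitochondria, had the lowest tested log2 fold change of the set. It was at 179 and 156 CPM in CPN-/-, at 83.1 and 78.1 CPM in the CRY1 line, and at 128 and 126 CPM in the CRY2 line. The lines did not overlap, and the CRY2 line again lay between the others. The fall in the CRY1 line was 2.08-fold (log2 fold change −1.06 ± 0.11, edgeR adjusted p = 0.00123), and it passed under each of the 16 alternative settings that were fitted. Its value of −0.40 in the CRY2 line had an edgeR adjusted p of 0.0789 and a DESeq2 adjusted p of 0.0358, and the direct difference between the CRY lines was −0.66 (edgeR adjusted p = 0.00849).

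Aldh1l2 (216188, chr10:83487447-83534146), which oxidises 10-formyl-tetrahydrofolate in mitochondria with release of NADPH, passed in none of the comparisons by edgeR; DESeq2 called it lower in the CRY1 line than in the CRY2 line (adjusted p = 0.0238). Its CPN-/- libraries were at 606 and 406 CPM, those of the CRY1 line at 396 and 401 CPM, and those of the CRY2 line at 600 and 581 CPM. The CPN-/- pair thus spanned the CRY2 level and its lower library was near the CRY1 level. The log2 fold change was −0.35 (95% interval −0.78 to 0.08) in the CRY1 line and 0.22 (−0.21 to 0.65) in the CRY2 line, with edgeR adjusted p = 0.196 and 0.464. Its transcript is 6.03 kb long. With the trend of each library on transcript length removed, Aldh1l2 was lower in the CRY1 line than in CPN-/- (−0.55, edgeR adjusted p = 0.00190) and than in the CRY2 line (−0.59, edgeR adjusted p = 0.00160). It shares 1056 exonic bases with D10Wsu102e on the opposite strand, and whether counting used strand is not given in the sources used here.

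Transsulfuration rested on few reads in these cells. Cbs (12411, chr17:31612623-31637233), which condenses serine with homocysteine, had 5 and 5 counts in CPN-/-, 13 and 5 in the CRY1 line, and 4 and 0 in the CRY2 line, below the filter for testing. No difference between lines was detectable at this depth.

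Cth (107869, chr3:157894248-157925081), which cleaves cystathionine to cysteine and can also form hydrogen sulfide, had 362 and 331 counts in CPN-/-, 45 and 41 in the CRY1 line, and 1 and 1 in the CRY2 line. In CPM these were 11.4 and 12.7, then 1.25 and 1.33, then 0.04 and 0.04. The lines thus formed 3 separate steps, CPN-/- above the CRY1 line above the CRY2 line. The mean CPM of CPN-/- was 9.35 times that of the CRY1 line. Against a floor of 3 counts per library, Cth was at least 109-fold lower in the CRY2 line than in CPN-/-, and at least 11.6-fold lower than in the CRY1 line. These steps are part of what the set was chosen on.

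No tested neighbour of Cth showed steps of that size. Of the 3 nearest tested genes on each side, Fpgt, Lrriq3, Zranb2, Ankrd13c, Srsf11 and Lrrc40, Ankrd13c lies closest at 20.3 kb. Lrrc40 fell in the CRY1 line (log2 fold change −0.66, edgeR adjusted p = 0.00742), but did not pass without either CRY1 library, and none of the 6 was called in the CRY2 line by edgeR, where Lrrc40 had an adjusted p of 0.0722. Of 12 tested genes within 5 Mb, the log2 fold changes ran from −1.14 to 0.16 in the CRY1 line (median −0.13) and from −1.19 to 0.23 in the CRY2 line (median −0.27), with Lrriq3, at 4 to 14 counts per library, lowest in both.

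**Figure D3:**
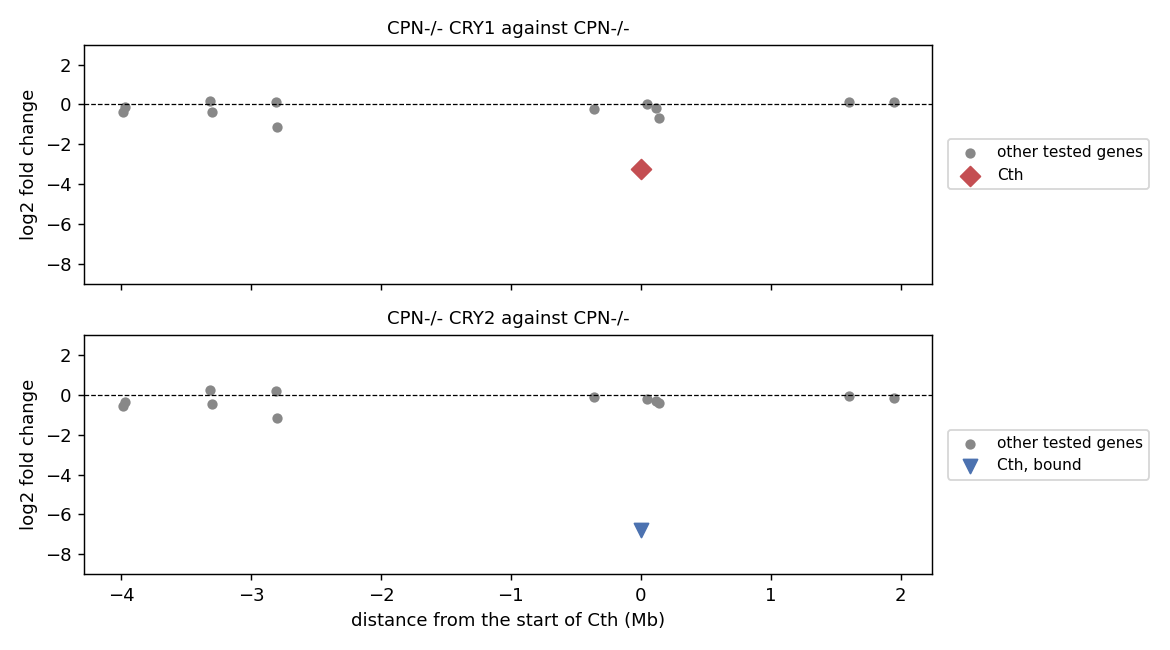
Log2 fold change (vertical axis) of tested genes within 5 Mb of Cth against their distance from its start, with CPN-/- CRY1 against CPN-/- in the upper panel and CPN-/- CRY2 against CPN-/- in the lower panel. Cth stands at −3.22 in the upper panel and at its bound of at least 109-fold lower in the lower panel, while none of the 12 other genes is below −3.

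Around Phgdh, on the same chromosome, the 3 nearest tested genes on each side were Pde4dip, Sec22b, Notch2, Zfp697, Gm5853 and Wars2. Sec22b fell in the CRY1 line (log2 fold change −0.94, edgeR adjusted p = 0.00198). The others were not called there by edgeR, with log2 fold changes from −0.28 (Wars2) to 0.22 (Gm5853). The median log2 fold change of all tested chromosome 3 genes in the CRY1 line was −0.28, and relative to it Phgdh stood at −0.35 and Cth at −2.94. Between the CRY lines the Phgdh value of −0.39 was 0.02 relative to the chromosome median. The chromosome 3 median was 0.11 in the CRY2 line. The 12 tested genes within 5 Mb of Cth had medians of −0.13 in the CRY1 line and −0.27 in the CRY2 line. The whole-chromosome medians thus did not describe the stretch around Cth. Why the chromosome was shifted was not tested.

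By level per kilobase of transcript, the scale on which genes can be set against each other, the members spanned a wide range. In CPN-/- the order was Shmt2 at 299 ± 21.3 (SD, n = 2) CPM per kb, Psat1 at 269 ± 9.87, Phgdh at 177 ± 39.7, Mthfd2 at 112 ± 9.68, Aldh1l2 at 84.0 ± 23.5, Psph at 54.5 ± 10.1, Mthfd1l at 45.4 ± 4.50, Shmt1 at 16.7 ± 0.590, Cth at 6.63 ± 0.515 and Cbs at 0.028 ± 0.0039. Among neighbours in this order only Psph and Mthfd1l had overlapping library values. The mitochondrial Shmt2 thus stood far above its cytosolic counterpart Shmt1, which was at 11.5 CPM per kb in the CRY1 line and 14.2 in the CRY2 line. In the CRY1 line, Psat1 (233 ± 3.83) was above Shmt2 (189 ± 2.18), whereas in the CRY2 line Shmt2 (274 ± 11.4) was above Psat1 (223 ± 3.27). Cth was at 0.709 CPM per kb in the CRY1 line and 0.020 in the CRY2 line.

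**Figure D4:**
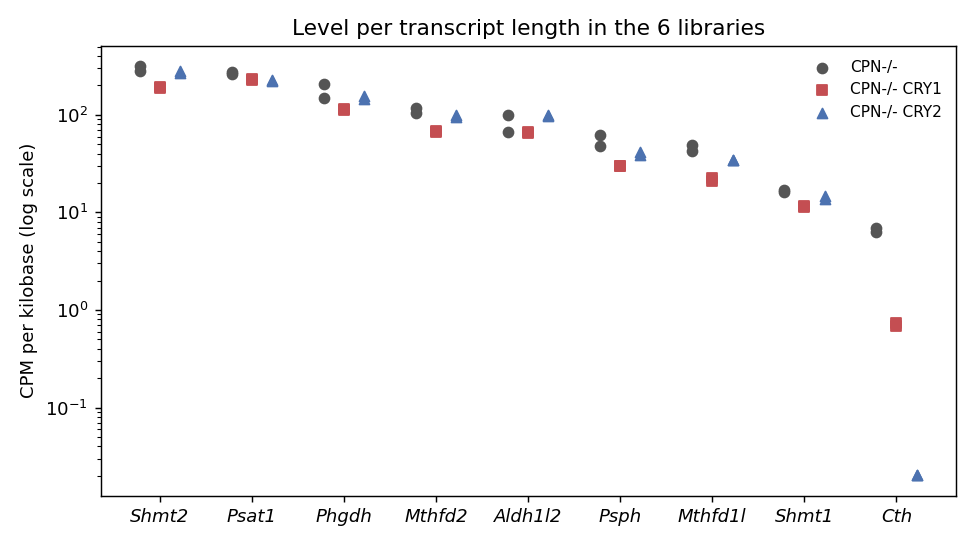
CPM per kilobase of transcript (vertical axis, log scale) in the 6 libraries for the 9 members other than Cbs, ordered by the CPN-/- mean from Shmt2 (299) to Cth (6.63). The lines are farthest apart for Cth, with 0.709 in the CRY1 line and 0.020 in the CRY2 line.

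Of 70 other genes of the same metabolism, 59 were tested. In the CRY1 line, 8 fell and 4 rose against the background of 13.1% and 11.2%, and their median log2 fold change was −0.09. In the CRY2 line, 1 fell and 5 rose, beside 4.08% and 2.58% of all genes, with a median of −0.02. Between the CRY lines, 9 were lower and 4 higher in the CRY1 line, beside 8.57% and 7.72% of all genes, with a median of −0.03. With chromosome medians subtracted, Slc25a32, Ahcyl1, Gclm and Csad were no longer called lower there, nor Got1 higher (edgeR adjusted p from 0.156 to 0.939). Slc3a2 was then called lower (−0.45, edgeR adjusted p = 0.0380).

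Among these genes the largest falls in the CRY1 line were those of Slc7a11 and Chac1, both of the cysteine and glutathione branch. Slc7a11, the cystine importer that supplies cysteine by a route other than transsulfuration, had 51.5 and 35.2 CPM in CPN-/-, 6.97 and 7.98 CPM in the CRY1 line, and 34.9 and 32.3 CPM in the CRY2 line. It fell in the CRY1 line (log2 fold change −2.54 ± 0.20, edgeR adjusted p = 0.000557), was at −0.37 in the CRY2 line (edgeR adjusted p = 0.262), and was lower in the CRY1 line than in the CRY2 line by −2.17 (edgeR adjusted p = 0.00105). It too lies on chromosome 3. Chac1, a glutathione-degrading enzyme, fell in the CRY1 line (−1.05, edgeR adjusted p = 0.000916), as did Gclm, the modifier subunit of glutathione synthesis (−0.45, edgeR adjusted p = 0.0202). Gclm, on chromosome 3 as well, no longer passed with the chromosome median subtracted (−0.17, edgeR adjusted p = 0.241). Cdo1, of the same branch, went the other way. It was at 0.84 in the CRY1 line against CPN-/- (edgeR adjusted p = 0.0618). Cdo1 was higher in the CRY1 line than in the CRY2 line by 1.29 (edgeR adjusted p = 0.0254), a value that ran from 1.00 to 1.66 over the alternative settings.

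Genes that carry or degrade serine and glycine changed in both directions. The glycine transporter Slc6a9 fell in the CRY1 line (log2 fold change −0.61, edgeR adjusted p = 0.00989), and the sideroflexin Sfxn3, of a family of mitochondrial serine carriers, rose (0.92, edgeR adjusted p = 0.00138). Sdsl, a homologue of serine dehydratase, had 45 and 42 counts in CPN-/-, 202 and 134 in the CRY1 line, and 6 and 6 in the CRY2 line. It thus moved in opposite directions in the CRY lines, by 1.72 (edgeR adjusted p = 0.00218) and −2.74 (edgeR adjusted p = 0.00478) on the log2 scale. Sds, the dehydratase itself, was low at 21 to 43 counts per library and fell in the CRY1 line (−0.97, edgeR adjusted p = 0.0214). The amino acid carrier Slc38a2 rose in the CRY2 line (0.51, edgeR adjusted p = 0.0340). With chromosome medians subtracted, Slc38a2 was called higher in both CRY lines. Its values were then 0.51 in the CRY1 line (edgeR adjusted p = 0.0180) and 0.46 in the CRY2 line (edgeR adjusted p = 0.0483).

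In the folate cycle, the carriers Slc19a1 (log2 fold change −0.34, edgeR adjusted p = 0.0440) and Slc46a1 (−0.48, edgeR adjusted p = 0.0408) fell in the CRY1 line, but neither passed with the chromosome median subtracted (edgeR adjusted p = 0.0747 and 0.0922). Mthfd1, the cytosolic counterpart of the mitochondrial folate enzymes, was at −0.09 in the CRY1 line and 0.04 in the CRY2 line (edgeR adjusted p = 0.481 and 0.771), and was picked out after its values were seen. In the CRY2 line the mitochondrial folate carrier Slc25a32 (0.43, edgeR adjusted p = 0.0491) and the sarcosine dehydrogenase Sardh (0.60, edgeR adjusted p = 0.0151) rose. The call of Slc25a32 held in only 5 of the 16 alternatives. In the methionine cycle, Ahcy, which splits S-adenosylhomocysteine, fell in the CRY1 line (−0.64, edgeR adjusted p = 0.0120). Its homologues rose, Ahcyl2 in the CRY1 line (0.43, edgeR adjusted p = 0.0456) and Ahcyl1 in the CRY2 line (0.56, edgeR adjusted p = 0.0212). With chromosome medians subtracted, Ahcyl1 was called higher in both CRY lines. Its values were then 0.46 in the CRY1 line (edgeR adjusted p = 0.0205) and 0.45 in the CRY2 line (edgeR adjusted p = 0.0473). Csad, of taurine synthesis, rose in the CRY2 line (0.51, edgeR adjusted p = 0.0360), but not with the chromosome median subtracted (edgeR adjusted p = 0.0501). The 5 rises in the CRY2 line did not pass when any 1 library of the CRY lines was left out, and the same held in the CRY1 line for the changes of Gclm, Sds, Slc19a1, Slc46a1 and Ahcyl2. Slc6a9 and Ahcy did not pass without either CRY1 library, nor Sdsl in the CRY2 line without either CRY2 library. Slc7a11, Chac1 and Sfxn3 in the CRY1 line passed under each of the 16 alternatives.

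ATF4 is a transcription factor known to activate serine synthesis and mitochondrial folate genes. Its mRNA had 692 and 918 CPM in CPN-/-, 586 and 568 CPM in the CRY1 line, and 765 and 777 CPM in the CRY2 line, with the CRY1 line lowest. The log2 fold change was −0.48 in the CRY1 line (edgeR adjusted p = 0.0520) and −0.06 in the CRY2 line (edgeR adjusted p = 0.803), and the first value stayed short of the threshold in 9 of the 16 alternatives. Myc stood at −0.08 and 0.04 and Nfe2l2 at −0.13 and 0.09 in the same comparisons, with edgeR adjusted p from 0.294 to 0.902. Atf4 lies on chromosome 15, whose tested genes had a median log2 fold change of −0.36 in the CRY1 line. With chromosome medians subtracted, Atf4 was at −0.12 in the CRY1 line and did not pass. Between the CRY lines it was then at 0.01. Of 17 ATF4 target genes outside the pathway, 9 fell in the CRY1 line (Asns, Atf3, Ddit4, Trib3, Vldlr, Ppp1r15a, Gars, Sars and Cebpb) and 2 rose (Atf5 and Wars), beside 13.1% and 11.2% of all genes, with a median log2 fold change of −0.55. Of these, Vldlr alone fell in the CRY2 line (−4.61, edgeR adjusted p = 0.000542), beside 4.08% of all genes, and the median was −0.25. Asns, asparagine synthetase, fell by 0.80 on the log2 scale in the CRY1 line (edgeR adjusted p = 0.00497) and Ddit4 by 1.65 (edgeR adjusted p = 0.000375). The count of 9 was 3 without CRY1 replicate 1 and 2 without CRY1 replicate 2, and in the CRY2 line 13 fell without CPN-/- replicate 1 and 6 without CPN-/- replicate 2, where 28.0% and 10.9% of all genes were called lower. Whether the members moved through ATF4 was not tested.

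The near loss of Cth from the CRY2 line was shared by few genes. At most 3 counts in both CRY2 libraries with at least 100 in each of the other 4 was met by 1 gene, Scml2, a Polycomb protein gene on the X chromosome, with 170 and 138 counts in CPN-/-, 131 and 140 in the CRY1 line, and 0 and 0 in the CRY2 line. Cth itself missed this limit because of its low counts in the CRY1 line. With at least 100 counts asked of CPN-/- alone, a limit set after the values were seen, 12 genes were found, Cth among them. Of the 12, 5 also had at most 3 counts in both CRY1 libraries, namely Nos2, Lcn2, Cxcl5, Saa3 and Casp4. Like Cth, Hpse, Prl2c3, Prl2c2, H2-Q7 and Slpi were lower in the CRY1 line than in CPN-/- and lowest in the CRY2 line. Hpse had 309 and 221 counts in CPN-/-, 53 and 49 in the CRY1 line, and 2 and 0 in the CRY2 line.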

How the data were processed

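Stranded polyA libraries were sequenced as paired-end reads. Per the labels and the study's methods, the authors mapped reads to mm10 with STAR and counted them per NCBI Gene identifier with featureCounts. The deposited values are whole read counts, neither normalized nor filtered. How the authors set strand, multiple matches and annotation is not given in the sources used here.

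Counts of all 6 libraries were fitted with edgeR 4.0.16 (R 4.3.3; TMM, filterByExpr, robust quasi-likelihood test, line as the only term), which left 14069 genes, at a Benjamini-Hochberg adjusted p under 0.05. DESeq2 1.42.0 was an alternative. CPM used TMM library sizes. Symbols, positions and promoters came from RefSeq tables (GRCm38.p6; 25275 identifiers matched), and shared sequence from BLAST+ 2.17.0 (95% identity, 150 bases).

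The members and gene lists were chosen with earlier results of these data known. Named were all members, called genes of the listed pathways (up to 10 a comparison), Atf4, Myc and Nfe2l2, called ATF4 targets, the 3 nearest tested neighbours of Cth and Phgdh, and genes with the count pattern of Cth. 1 called gene of the listed pathways is not reported here by name.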

Additional observations from a re-analysis of the deposited data

Results flagged for a closer look

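Sdsl was the 1 result that met a preset criterion for a second look, because its effects in the CRY lines differed in direction. Its log2 difference of CPN-/- CRY1 from CPN-/- CRY2 was 4.47 (edgeR's quasi-likelihood test, adjusted p = 0.000342), with 202 and 134 counts in the former and 6 and 6 in the latter. Both CPN-/- libraries, at 45 and 42 counts, lay between the CRY lines.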

How the results depend on the processing

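With 2 libraries per line, calls depend on the shared estimate of spread, which the CPN-/- pair widens, and a line left with 1 library is assumed to vary like the others. The shares of all genes called lower and higher also moved. With only the 4 libraries compared, they were 7.31% and 5.58% in CPN-/- CRY1 against CPN-/-, and 2.36% and 1.06% in CPN-/- CRY2 against CPN-/-. Between the CRY lines they were 24.5% and 25.2%. With the length trend removed, they were 20.2% and 17.9%, 7.7% and 6.48%, and 15.4% and 15.3% in the same order. The members called in CPN-/- CRY1 against CPN-/- (5) numbered 4 to 6 under the other settings, but 1 at a log2 fold change of at least 1, and 1 to 6 with single libraries left out. The members called in CPN-/- CRY2 against CPN-/- (0) numbered 2 with the transcript length trend removed, 1 with chromosome medians subtracted and 1 with DESeq2, and 0 to 7 with single libraries left out. Those called between the CRY lines (3) numbered 6 with only the 4 libraries compared and 6 with the length trend removed, 1 at an adjusted p under 0.01, 0 at a log2 fold change of at least 1, and 0 to 6 with single libraries left out.

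For the other pathway genes, CPN-/- CRY1 against CPN-/- (12) gave 6 with only the 4 libraries, 24 with the length trend removed, 5 at an adjusted p under 0.01, 3 at a log2 fold change of at least 1, and 4 to 32 with single libraries left out. CPN-/- CRY2 against CPN-/- (6) gave 1, 15, 1, 1 and 0 to 34 under the same settings in that order. Between the CRY lines (13) the counts were 28 with only the 4 libraries, 3 at a log2 fold change of at least 1, and 3 to 28 with single libraries left out.

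The sign changed for Phgdh in CPN-/- CRY2 (0.0134 without CPN-/- replicate 2, −0.46 without CPN-/- replicate 1), Phgdh between the CRY lines (0.0165 with chromosome medians subtracted), Psat1 between the CRY lines (−0.40, the same setting) and Aldh1l2 in CPN-/- CRY2 (−0.0313 without CPN-/- replicate 2, 0.54 without CPN-/- replicate 1); the cause was not tested. Replicate numbers share only a label: deviations of same-numbered libraries correlated at −0.08, 0.14 and −0.03. The replicate block gave 5, 0 and 3 members and 12, 5 and 12 other pathway genes called.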
